A study of Mus musculus with 2 samples.

Results

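The secreted antagonists of bone morphogenetic proteins (BMPs) are proteins that hold BMP ligands outside the cell and so keep them from their receptors. The genes followed here are Nog, Grem1, Chrd, Chrdl1, Chrdl2, Fst, Fstl1, Sostdc1 and Bmper, chosen by symbol through the accession of each array probe. All 9 were on the array, with 12 of its 39429 gene probes, and all 9 passed the filter on dim probes and were among the 21337 genes tested. They were measured in ureters of wildtype NMRI mouse embryos of mixed sex, explanted at E12.5 and cultured for 18 h. Control ureters had medium alone and the other ureters had 10 µg/ml NOGGIN in it, with no other agent or allele in either group. The data are 2 Agilent 2-colour arrays, replicates 1 and 2. Each array carried 1 control and 1 NOGGIN sample, with the dyes exchanged between arrays. The labels do not say how many embryos were pooled or whether the replicates came from separate cultures, so p-values measure only the spread between these samples, which may be technical. In whole ureters, fewer cells of a type and less RNA per cell cannot be told apart.

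BMP antagonists limit the range and strength of BMP signalling, and several of their genes are themselves switched on by BMPs, which closes a negative feedback loop. In the developing kidney and ureter, Bmp4 from the mesenchyme around the duct is held in check by Grem1 where the ureteric bud grows out, while in the ureter it supports the mesenchyme that becomes smooth muscle. The comparison of NOGGIN with control asks how the endogenous antagonist genes stood when the ligands were bound by an added antagonist. The array probe for Nog reads the RNA of the tissue's own gene, not the protein in the medium.

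Values are log2 ratios of the NOGGIN-labelled over the control-labelled channel of each array, and a gene called "higher" or "lower" was so in the channel labelled NOGGIN. This direction follows the dyes in the labels, and it is the opposite of the authors' deposited table of signed fold changes. Over 21792 brighter probes, that table's log2 values correlated with the label-oriented ratios of the same array at r = -0.983 on replicate 1 and -0.984 on replicate 2. The direction is thus not settled, and turning the sign exchanges "higher" and "lower" throughout with the same sizes and p-values. What does not depend on it is which genes moved together and which moved apart. The readout gene Id2, which BMPs switch on and whose product blocks helix-loop-helix factors, was at 2.11 on replicate 1 and 3.34 on replicate 2. In the authors' deposited table its signed fold changes are -4.19 and -10.5. The labels thus put a gene that BMPs switch on higher under an added BMP antagonist, as they do 7 of the 8 target genes. The deposited table puts Id2 lower, the way that blocked BMP signalling would move it. Not all genes speak against the labels, however. By the labels 4 of 5 smooth muscle markers were lower, and Bmp4 supports the mesenchyme that becomes smooth muscle. A gene called "higher" here is therefore not one shown to rise with NOGGIN.

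Of the 9 antagonist genes 4 were higher, 1 was lower and 4 did not pass an adjusted p of 0.05 in limma, the linear model fitted over all genes with Benjamini-Hochberg adjustment. Nog, Chrdl1, Chrdl2 and Bmper went the way of the Id genes, and Sostdc1 went the way of the ligand genes Bmp2, Bmp4 and Bmp7. Over all genes tested, 7.97% passed, 3.95% higher and 4.03% lower. The same 5 members also differed by at least 1.5-fold in 1 direction on both arrays, as 2.90% of all genes did. The normalised control and NOGGIN channel values did not overlap for any of the 9, but this held for 51.2% of all genes and says little of single members. The median log2 ratio of the members was 0.32, with 0.27 on replicate 1 and 0.53 on replicate 2, against 0.00083 over all genes. With each array only centred on its median, in place of the intensity-dependent loess step, 0 of the 9 passed in limma (adjusted p of 0.0868 to 0.131 for the 5, with 6 of 9 at an unadjusted p under 0.05). In that setting 0 of all 21337 genes passed in limma either, with 3572 at an unadjusted p under 0.05.

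**Figure D1:**
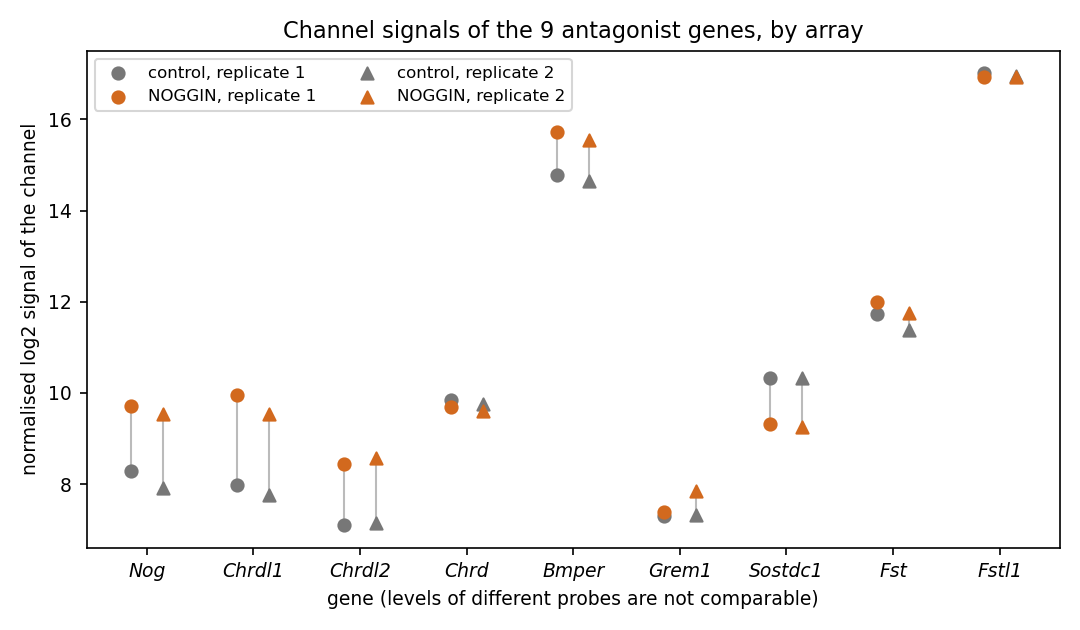
Normalised log2 signal of the control channel (grey) and the NOGGIN channel (orange) for the 9 antagonist genes on replicate 1 (circles) and replicate 2 (triangles), joined within each array, by the dyes in the labels. Nog, Chrdl1, Chrdl2 and Bmper are higher in the NOGGIN channel on both arrays, Sostdc1 is lower on both, and the pairs of Chrd and Fstl1 lie within 0.15 of each other.

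Nog encodes noggin itself, which covers the receptor-binding surfaces of BMP dimers and is a known BMP target gene. Its normalised log2 signal was 8.28 in the control and 9.71 in the NOGGIN channel on replicate 1, and 7.91 and 9.55 on replicate 2. Both NOGGIN values lay above both control values, though channel values did not overlap for 51.2% of all genes. The log2 ratio was 1.53 ± 0.15 (SD, n = 2 arrays), a 2.89-fold difference (95% interval 1.31 to 1.75 on the log2 scale, adjusted p = 0.00352, limma). The authors' deposited table gives Nog a signed fold change of -3.23 on replicate 1 and -4.20 on replicate 2. In absolute size Nog stood at the 63rd place of all 21337 genes.

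Chordin and the chordin-like proteins bind BMPs through cysteine-rich von Willebrand factor C repeats, and chordin is cut and inactivated by tolloid proteases. These 3 related genes did not move as a block. Chrdl1 was at 7.98 in the control and 9.95 in the NOGGIN channel on replicate 1, and at 7.76 and 9.53 on replicate 2. Its log2 ratio was 1.87 ± 0.15 (n = 2), 3.65-fold and larger than for any other member (adjusted p = 0.00338, limma). A second kept Chrdl1 probe, matched to another transcript accession, gave 1.55 and 1.28 on the arrays, in the same direction. Another Chrdl1 probe did not pass the filter on dim probes, since on both arrays its control channel was not well above background. Its NOGGIN channel was well above background on replicate 1 alone. On replicate 2 a single spot (1) was left, with neither channel well above background. Log2 signals were 6.45 and 6.41 in the control channels and 7.16 and 6.74 in the NOGGIN channels. The authors' deposited table has -1.8 on replicate 1 and 1 on replicate 2. This probe was not tested and gives no size.

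Chrdl2 was at 7.10 in the control and 8.44 in the NOGGIN channel on replicate 1, and at 7.14 and 8.57 on replicate 2. The arrays thus gave nearly the same difference. The log2 ratio was 1.39 ± 0.061 (n = 2), 2.62-fold (adjusted p = 0.00341, limma). The size for this dim probe depends on the background step, since the log2 ratio was 2.22 with Agilent's processed signals and 1.84 with a background offset of 0. The authors' deposited table has -4.38 and -5.38 for Chrdl2, and -5.16 and -5.01 for Chrdl1. Chrd, the founding gene of the family, behaved otherwise. It was at 9.84 and 9.70 in control and NOGGIN channels on replicate 1 and at 9.76 and 9.61 on replicate 2. Its log2 ratio of -0.14 ± 0.011 did not pass (95% interval -0.33 to 0.041, adjusted p = 0.317, limma). The interval leaves out log2 ratios of the size and sign seen for Chrdl1 and Chrdl2. Of the chordin proteases, Bmp1 at -0.04 ± 0.24 (other probes at -0.23 and -0.19) and Tll1 at -0.37 ± 0.36 (another probe at -0.15) did not pass in limma, and Tll2 did not pass the filter on dim probes.

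**Figure D2:**
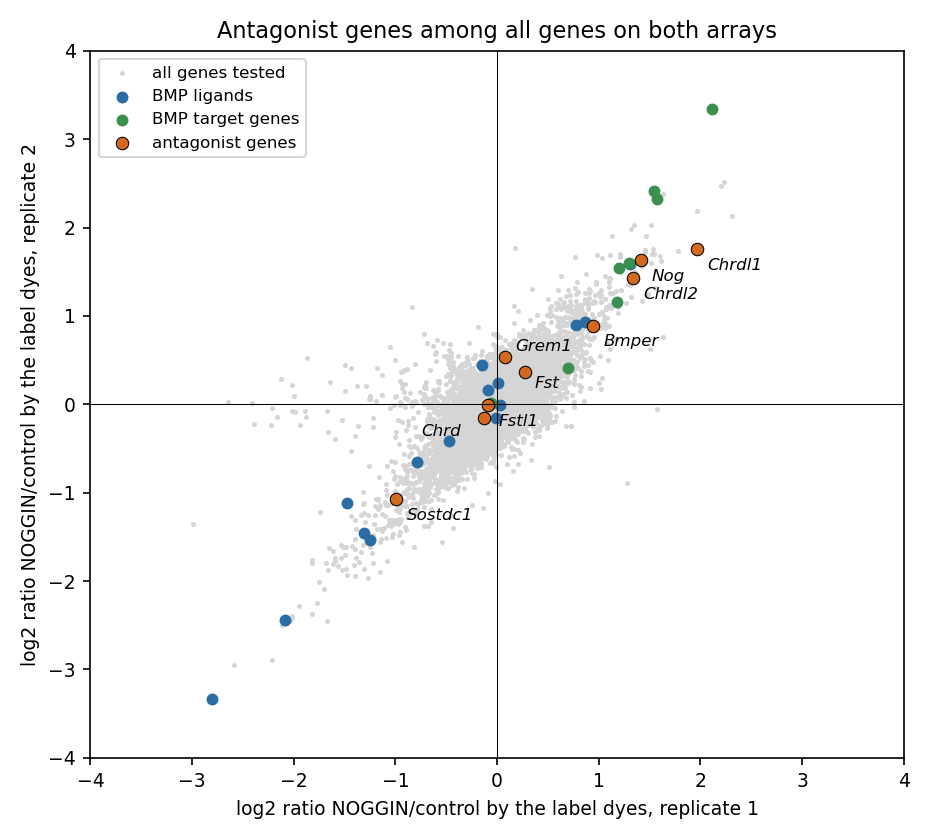
Log2 ratio of NOGGIN over control by the label dyes on replicate 1 (x axis) against replicate 2 (y axis) for all 21337 genes (grey), BMP ligand genes (blue), BMP target genes (green) and the 9 antagonist genes (orange, named). Nog, Chrdl1, Chrdl2 and Bmper lie in the upper right with most target genes, Sostdc1 lies in the lower left with several ligand genes, and Grem1 lies off the diagonal.

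Bmper encodes crossveinless 2, a chordin-related protein that stays near the cell surface and can hinder or help BMP signalling. Bmper was at 14.79 in the control and 15.73 in the NOGGIN channel on replicate 1, and at 14.66 and 15.55 on replicate 2. The 4 values fell into separate pairs by labelled channel, as they did for 51.2% of all genes. The log2 ratio was 0.91 ± 0.037 (n = 2), 1.88-fold (95% interval 0.73 to 1.10, adjusted p = 0.00596, limma). The authors' deposited table has -1.92 and -1.86. The signal was far above background, and the ratio lay between 0.81 and 0.92 under the 10 other settings tried.

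Grem1 and Sostdc1 encode cystine-knot antagonists, gremlin 1 and a protein also called USAG-1 or ectodin, which inhibits WNT as well as BMP signalling. Grem1 was at 7.31 in the control and 7.39 in the NOGGIN channel on replicate 1, and at 7.33 and 7.86 on replicate 2. The arrays therefore disagreed in size, with log2 ratios of 0.074 and 0.53. The mean of 0.30 ± 0.32 did not pass (95% interval -0.014 to 0.61, adjusted p = 0.232, limma), and these arrays settle neither a difference nor its absence. The authors' deposited table also has the arrays apart, with -1.23 on replicate 1 and -1.89 on replicate 2. The mean log2 ratio of Grem1 was 0.56 with Agilent's processed signals and 0.61 with that table, sign turned, and did not pass in limma in either (adjusted p = 0.104 and 0.123). Sostdc1 was the member that passed as lower. It was at 10.33 in the control and 9.33 in the NOGGIN channel on replicate 1, and at 10.32 and 9.25 on replicate 2. Its log2 ratio was -1.03 ± 0.053 (n = 2), a 2.05-fold difference (adjusted p = 0.00474, limma). A second Sostdc1 probe gave -0.94 and -1.13, and the authors' deposited table has 2.09 and 2.26 for the first.

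Follistatin and follistatin-like 1 belong to another protein family, and follistatin binds activins more tightly than BMPs. Fst was at 11.73 in the control and 12.00 in the NOGGIN channel on replicate 1, and at 11.39 and 11.76 on replicate 2. Its log2 ratio of 0.32 ± 0.072 did not pass (95% interval 0.13 to 0.51, adjusted p = 0.0738, limma), with ratios of the same sign on both arrays. Fstl1 was at 17.01 and 16.92 on replicate 1 and at 16.95 and 16.94 on replicate 2. Its ratio, -0.049 ± 0.061, was the smallest of the 9 (95% interval -0.24 to 0.14, adjusted p = 0.767, limma), and 0 spots on either array were saturated. Neither gene moved on the scale of Nog or Chrdl1.

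The RefSeq promoter table of build GRCm38.p6 matched 4 of the 9 genes, Grem1, Chrd, Fstl1 and Bmper. The 250 bases before the start are shown for Bmper, which passed, and for Grem1, whose arrays disagreed. Capitals mark GGCGCC, a GC-rich element that SMAD proteins can bind, and CAGAC or its reverse complement GTCTG, the SMAD-binding element. Bmper (chr9:23222826-23223075, plus strand) held neither. Grem1 (chr2:113758649-113758898, minus strand) held GGCGCC starting 78 bases and CAGAC starting 219 bases before the start.
Bmper: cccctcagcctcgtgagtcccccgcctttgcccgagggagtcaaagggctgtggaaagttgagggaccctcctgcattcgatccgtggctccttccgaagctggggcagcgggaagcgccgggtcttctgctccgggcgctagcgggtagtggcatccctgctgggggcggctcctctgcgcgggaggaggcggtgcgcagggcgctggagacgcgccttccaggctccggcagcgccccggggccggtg
Grem1: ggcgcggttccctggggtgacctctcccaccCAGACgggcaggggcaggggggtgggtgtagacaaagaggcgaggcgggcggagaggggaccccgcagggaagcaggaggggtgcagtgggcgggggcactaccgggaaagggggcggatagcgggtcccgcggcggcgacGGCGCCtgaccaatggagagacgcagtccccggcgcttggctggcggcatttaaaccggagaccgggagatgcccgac
Chrd held GGCGCC once and no CAGAC, and Fstl1 held neither. Among 32807 such windows of the table, 9.59% held GGCGCC, 42.2% held CAGAC on either strand and 3.60% held both. GGCGCC is its own reverse complement, and the motifs do not overlap in these windows. The matches describe letters in a window and nothing of what binds there.

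Further inhibitors of BMP ligands were mostly lower where they passed. Of 17 such genes 13 were measured, of which 1 was higher, 4 lower and 8 did not pass in limma, with a median log2 ratio of -0.15. Bambi, a decoy receptor gene and BMP target, was at least 1.5-fold higher (adjusted p = 0.045, limma). On both arrays its control channel was not well above background (mean log2 signals of 6.72 in control and 7.34 in NOGGIN channels). It passed the filter on dim probes only through its NOGGIN channel, so this p gives no support. The bound sets the mean of the NOGGIN values against the lowest signal that counts as well above background. The control's own signal was used where that is higher. With both conditions required to be well above background, 12 genes were tested, with 0 higher and 4 lower. Nbl1, which encodes the cystine-knot antagonist DAN, was lower at -1.36 ± 0.28 (adjusted p = 0.00632, limma). Fstl3, a follistatin relative that binds activins, the protease gene Htra1 and the proteoglycan gene Dcn were lower at -0.47 ± 0.010, -0.47 ± 0.028 and -0.39 ± 0.014. In a fit of separate channels with no replicate block, 2 of the 13 passed, 1 higher and 1 lower. Nbl1 went the way of Sostdc1 and not that of Nog (1.53). Grem1, also a gene of a cystine-knot antagonist, was at 0.30 ± 0.32 and did not pass in limma.

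**Figure D3:**
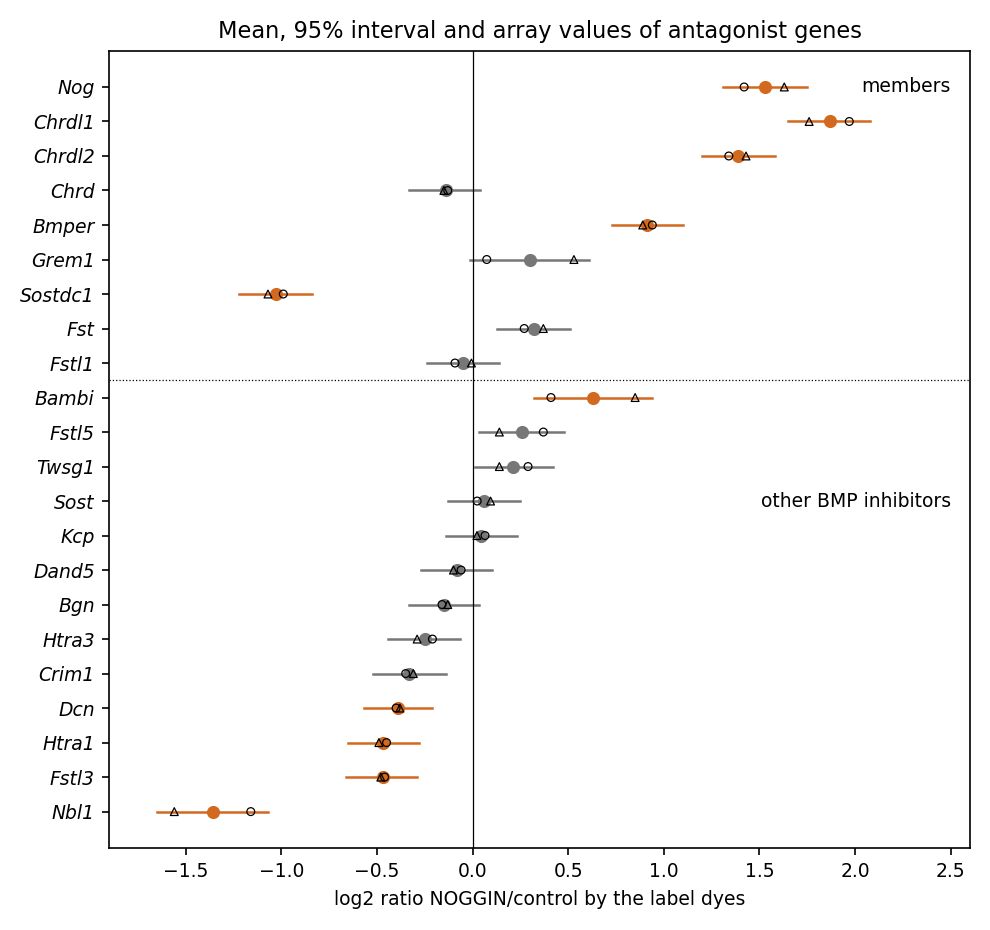
Mean log2 ratio of NOGGIN over control by the label dyes (filled points), limma's 95% interval (lines) and the values of replicate 1 (open circles) and replicate 2 (open triangles) for the 9 antagonist genes and, under the dotted line, 13 further inhibitors. Orange marks genes that passed an adjusted p of 0.05 in limma, and the widest gaps between arrays are those of Grem1, Nbl1 and Bambi. The control signal of Bambi was not well above background, so its point is not a measured size.

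The ligands that these proteins bind stood on both sides. Of 15 measured ligand genes 7 were lower, 3 higher and 5 did not pass in limma. Bmp2 was at 12.16 and 12.65 in the control channels and at 10.07 and 10.21 in the NOGGIN channels. Its log2 ratio was -2.26 ± 0.25 (adjusted p = 0.00338, limma). Bmp4 was at 17.89 and 18.05 in the control channels and at 16.41 and 16.93 in the NOGGIN channels (-1.30 ± 0.25). Bmp7, a ligand gene of the ureteric epithelium, gave -1.40 ± 0.20. Gdf6 had the largest difference of the ligand genes, -3.07 ± 0.38, and Bmp3, Bmp6 and Inhba were also lower. The 3 higher ligand genes were Gdf5, Gdf7 and Gdf10, at 1.45 ± 0.20, 0.84 ± 0.085 and 0.89 ± 0.053. A second Gdf5 probe gave 1.08 and 1.31 on the arrays, but the second Gdf7 probe went the other way, at -0.55 ± 0.056, so the probes of Gdf7 disagree and its direction is uncertain. The receptor genes moved little by comparison, with 1 of 13 passing in limma, the coreceptor gene Tgfbr3 at -0.48 ± 0.087.

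Inside the cell, 3 of 10 genes of SMADs and SMAD regulators were higher and 0 lower in limma (4 of 10 at an unadjusted p under 0.05). They were Smad9, a receptor-activated SMAD, at 2.37 ± 0.20, and the inhibitory Smad6 and Smad7 at 1.01 ± 0.17 and 0.55 ± 0.082. Of 8 target genes 7 were higher and 1, Tob1, did not pass, with Id2 and Id1 at 2.73 ± 0.87 and 1.98 ± 0.62. The ratios of Nog (1.53), Chrdl2 (1.39) and Chrdl1 (1.87) lay within the range of these 7, 0.55 to 2.73, and so did that of Bmper (0.91). This range is wide and covers only target genes that passed as higher. Genes outside that list, such as Gdf5 (1.45) and Tbx18 (1.25), lay in it too. The genes with the pair of array ratios nearest to that of Chrdl1, by Euclidean distance over 2 arrays, were Crhbp (1.78 and 1.74, distance 0.194), Tcf24 (1.60 and 1.68, distance 0.382) and Sphkap (1.61 and 1.62, distance 0.389).

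The labelled tissue was checked against its markers, and all 5 mesenchyme and 8 epithelium markers of the ureter were measured above the filter. Of the epithelial markers 1 passed in limma, Foxa1 as higher at 0.55 ± 0.0089, while Tbx18 of the ureteric mesenchyme was higher at 1.25 ± 0.27 and Aldh1a2 and Ptch1 were lower at -0.88 ± 0.31 and -0.43 ± 0.13. Smooth muscle markers were lower in 4 of 5. Their mean log2 signal was 13.90 and 13.82 in the control channels and 13.10 and 13.05 in the NOGGIN channels. All 9 kidney markers were also measured above the filter. Of these, Lhx1, Wnt11 and Foxd1 were lower in limma (3 of 9, with 5 of 9 at an unadjusted p under 0.05). In the control channels the nephron markers had mean log2 signals of 11.52 and 11.43. There the bud tip markers had 11.55 and 11.45, and Foxd1 of the renal stroma had 14.65 and 14.92. Of 3 mesothelial markers Wt1 was lower at -0.81 ± 0.39. Endothelial, macrophage, red blood cell and neural markers had 0 of 15 passing in limma (3 of 15 at an unadjusted p under 0.05). The part of these shifts in cell markers in the antagonist values was not tested. Per channel, 67.3% to 74.3% of gene spots stood well above background.

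**Figure D4:**
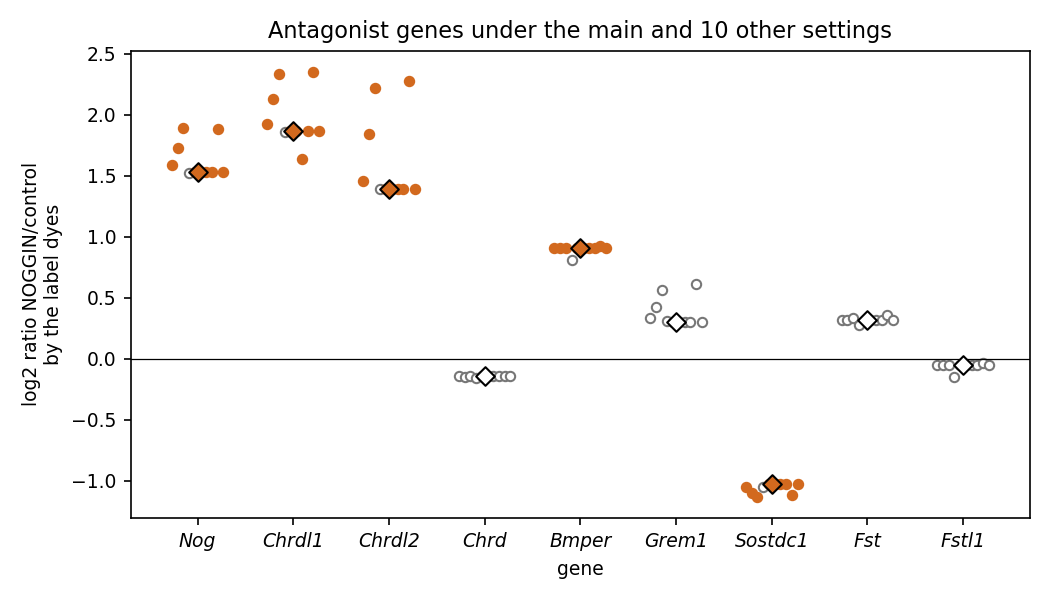
Log2 ratio of NOGGIN over control by the label dyes for the 9 antagonist genes under the settings used in the text (diamonds) and under 10 other settings (circles, spread sideways for legibility). Filled orange symbols passed an adjusted p of 0.05 in limma and open ones did not. The sign of each gene is the same throughout, while the size spans 1.52 to 1.89 for Nog, 1.64 to 2.35 for Chrdl1, 1.39 to 2.28 for Chrdl2 and 0.30 to 0.61 for Grem1.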

How the data were processed

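The deposited files give linear intensities per spot from Agilent Feature Extraction (version 10.7.3.1 in the submitters' processing notes). Their log10 ratio, computed by that software per the file headers, was not used. Per the labels' protocols, 200 ng of RNA was amplified once and labelled with Alexa Fluor 555 (read in green) or 647 (red). The authors' deposited table holds a signed fold change score per probe, with a normalisation not given in the sources used here. On a log2 scale it had slopes of -1.08 and -1.09 on the ratios of the same arrays over brighter probes, and dim members are larger in it.

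Control, filler and outlier spots were left out, background was corrected by normexp (offset 50), each array was normalised by loess and the 4 spots of a probe were averaged. Channel signals were scaled further between arrays (Aquantile). Probes were kept if, on both arrays, a share over 0.5 of their spots stood well above background in at least 1 condition, and named through a RefSeq table (GRCm38.p6), which gave 28328 of 39429 probes a symbol. The brightest probe stood for a gene. Log2 ratios were tested against 0 with limma 3.58.1 in R 4.3.3 (two-sided), with 1 residual and 4.12 prior degrees of freedom. Each ratio pairs the samples of 1 array, which share a replicate number. The fit was tested on simulated data.

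Members and lists were chosen with earlier results of these data known. Named are all members, further inhibitors that passed, the 2 largest passing pathway genes per role, Id2, Bmp2, Bmp4 and Bmp7, and the 3 genes nearest to Chrdl1. A gene of the list of further inhibitors is not reported here. Other named genes were chosen after their values were seen. The promoter motifs were also chosen then.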

Additional observations from a re-analysis of the deposited data

How the results depend on the processing

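The 9 members kept their sign under all 10 other settings, and the 4 that did not pass did not pass in any of them. The 5 that passed did so in 9 of the 10 settings, the exception being median centring without loess. There 0 members, 0 of 13 further inhibitors and 0 of 48 pathway genes passed in limma (6, 6 and 25 at an unadjusted p under 0.05). With loess 5, 5 and 21 passed (6, 9 and 25 at an unadjusted p under 0.05). Of all 21337 genes, 0 passed with median centring (3572 unadjusted) and 1701 with loess (4953 unadjusted). With median centring the log2 ratios of the 5 were 1.52 for Nog, 1.86 for Chrdl1, 1.39 for Chrdl2, 0.81 for Bmper and -1.05 for Sostdc1. The cause of the lost calls was not tested. With separate channels and no replicate block, 2 of 13 further inhibitors passed, and the same 5 members did. With each array alone, which allows no test, Nog ranged from 1.42 to 1.63, Chrdl1 from 1.76 to 1.97, Chrdl2 from 1.34 to 1.43, Bmper from 0.89 to 0.94, Sostdc1 from -1.07 to -0.99 and Grem1 from 0.074 to 0.53. The number of arrays, 2, limits precision, and the dim probes of Grem1, Chrdl1 and Chrdl2 limit their sizes (over the 10 settings 0.30 to 0.61, 1.64 to 2.35 and 1.39 to 2.28).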
